A study of Rattus norvegicus with 8 samples.

Results

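The genes described here are 5 CC chemokines and CC chemokine receptors that draw monocytes and other myeloid cells into tissue. They are the ligands Ccl2, Ccl7 and Ccl6 and the receptors Ccr1 and Ccr2, looked up by symbol in the list of 32623 genes. Of the 5 genes, 4 were analysed: Ccl2 (ENSRNOG00000007159), Ccl7 (ENSRNOG00000000239), Ccl6 (ENSRNOG00000030021) and Ccr1 (ENSRNOG00000006715). Ccr2 was not analysed here. Spinal cord cells of female Wistar rats aged 8 weeks were sequenced as droplet libraries 7 days after surgery at T9. A 10 g weight fell on the exposed cord from 12.5 mm (mild), 25 mm (moderate) or 50 mm (severe). In sham animals the lamina was removed and no weight was dropped. Each of the 4 groups had 2 libraries, called replicates 1 and 2, and each library was made from 10 mm of cord. The study's text describes the libraries as separate spinal cords and the labels name no animals, so p-values measure the spread between libraries.

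CC chemokines are small secreted proteins that bind to leukocytes through G protein-coupled receptors and guide them along a gradient. Ccl2 and Ccl7 are ligands of Ccr2, the receptor that inflammatory monocytes carry out of the bone marrow, and Ccl7 also binds Ccr1. Ccl6 is a rodent chemokine and a ligand of Ccr1, a receptor of monocytes, macrophages and neutrophils. In the contused cord, neutrophils enter first, and blood monocytes follow and become macrophages beside the resident microglia.

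The deposited values are unique molecular identifiers (UMIs), each of which marks a captured RNA molecule, per gene and cell. Libraries held 31482153 to 131045446 UMIs, and 55449 of 68658 deposited cells were kept after filters. Pairs of libraries shared 5 to 40 cell barcodes, 0.163% to 0.452% of the smaller library. Cells were gated by marker genes that hold none of the members: 27280 cells were macrophages/microglia, 8273 were neutrophils and 5882 stayed unassigned. The sham libraries stood apart from each other. Sham replicate 1 was 51.9% neutrophils and 7.08% macrophages/microglia, and sham replicate 2 was 0.0428% neutrophils and 89.6% macrophages/microglia. Sham replicate 2 therefore had 1 neutrophil and no neutrophil value below. Levels are counts per 1000000 UMIs (CPM), summed over the gated cells of a library where it had at least 20 of them.

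Of the 4 analysed members, Ccl7, Ccl6 and Ccr1 were matched by symbol to a promoter in the RefSeq table of build GRCr8, so 3 of 4 are shown. The 250 bases before each start site are printed to set Ccl7, held mainly by macrophages/microglia in these data, beside Ccl6 and Ccr1, which were highest in neutrophils. Capitals mark matches to 5 short motifs searched on both strands, of which none overlap: AP-1 (TGANTCA), C/EBP (TTGCNNAA), NF-kB (GGGA, any 4 bases, then CC), the ETS core bound by PU.1 (GAGGAA) and the TATA box (TATAAA). Of 33469 promoter windows of the same length, 6.34% held the AP-1 letters, 9.22% the C/EBP letters, 16.4% the NF-kB letters, 23.3% the ETS core and 12.9% the TATA box. The Ccl7 window lies at chr10:67513845-67514094 on the plus strand, the Ccl6 window at chr10:68883367-68883616 on the minus strand and the Ccr1 window at chr8:132439267-132439516 on the minus strand.
Ccl7: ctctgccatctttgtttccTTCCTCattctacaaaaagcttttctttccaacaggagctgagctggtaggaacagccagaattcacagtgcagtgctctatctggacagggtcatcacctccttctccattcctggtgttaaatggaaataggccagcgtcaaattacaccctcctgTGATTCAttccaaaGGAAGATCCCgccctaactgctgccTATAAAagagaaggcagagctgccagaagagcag
Ccl6: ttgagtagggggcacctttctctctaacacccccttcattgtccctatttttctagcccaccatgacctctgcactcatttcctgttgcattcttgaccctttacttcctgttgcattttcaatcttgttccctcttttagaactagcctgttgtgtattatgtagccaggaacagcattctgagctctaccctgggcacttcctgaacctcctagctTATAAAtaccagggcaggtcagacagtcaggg
Ccr1: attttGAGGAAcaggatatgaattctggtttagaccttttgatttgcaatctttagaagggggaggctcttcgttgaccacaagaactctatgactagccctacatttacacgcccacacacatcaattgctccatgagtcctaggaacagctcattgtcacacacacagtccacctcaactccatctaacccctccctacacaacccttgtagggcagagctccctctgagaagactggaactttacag
The Ccl7 window held AP-1 letters 73 to 67 bases before the start, NF-kB letters on the opposite strand 59 to 50 bases before it, an ETS core on the opposite strand 231 to 226 bases before it and a TATA box 34 to 29 bases before it. The Ccl6 window held a TATA box 32 to 27 bases before the start and none of the other letters. The Ccr1 window held an ETS core 245 to 240 bases before the start and no TATA box. A match describes these letters only and is not evidence that a factor binds.

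The 4 members fell into separate patterns across cell types. Macrophages/microglia, which made up 49.2% of the kept cells, held 81.2% of the 388012 Ccl2 UMIs and 94.4% of the 178125 Ccl7 UMIs. Neutrophils, 14.9% of the kept cells, held 51.6% of the 159100 Ccl6 UMIs and 47.4% of the 14340 Ccr1 UMIs, but only 5.65% of the Ccl2 UMIs and 0.152% of the Ccl7 UMIs. Macrophages/microglia held 35.1% of the Ccl6 UMIs and 37.4% of the Ccr1 UMIs. Unassigned cells, 10.6% of the kept cells, held between 2.62% (Ccl7) and 10.0% (Ccr1). The neutrophil shares of Ccl6 and Ccr1 lean on sham replicate 1, where neutrophils held 91.0% of the Ccl6 UMIs and 89.1% of the Ccr1 UMIs. In the 6 injured libraries neutrophils held 10.1% to 50.0% of the Ccl6 UMIs and 5.06% to 33.3% of the Ccr1 UMIs. Macrophages/microglia of these libraries held 22.2% to 80.2% of the Ccl6 and 33.9% to 80.2% of the Ccr1 UMIs. They held more than neutrophils in each for Ccr1, and for Ccl6 in all but mild replicate 1 and severe replicate 1.

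**Figure D1:**
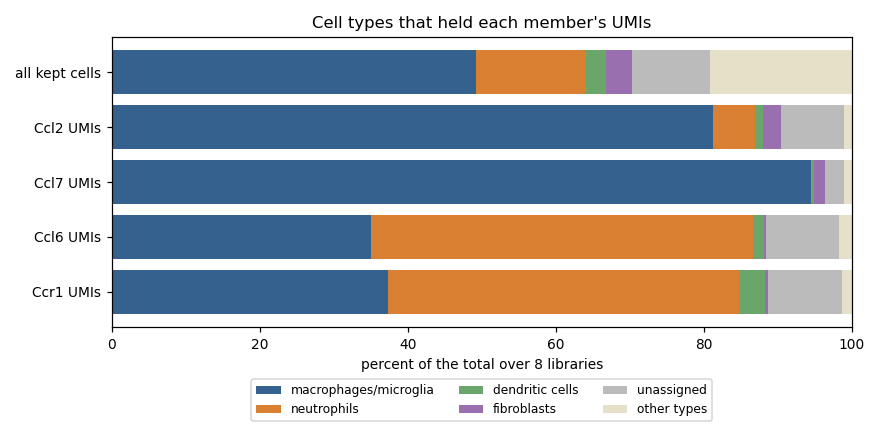
Share of the kept cells and of each member's UMIs (percent of the total over 8 libraries, x axis) that fell in each gated cell type. Macrophages/microglia hold 94.4% of the Ccl7 UMIs, and neutrophils hold 51.6% of the Ccl6 UMIs from 14.9% of the cells.

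Ccl2, the chief monocyte attractant of the family, had its highest mean CPM in neutrophils, followed by macrophages/microglia. In macrophages/microglia its level was 653 and 527 CPM in sham replicates 1 and 2. It was 694 and 375 CPM in the mild libraries, 341 and 2602 CPM in the moderate libraries, and 1642 and 1232 CPM in the severe libraries. In neutrophils it was 151 CPM in sham replicate 1, 1683 and 815 CPM in the mild libraries, 1338 and 14744 CPM in the moderate libraries, and 6425 and 3759 CPM in the severe libraries. Neutrophils thus had the higher level in each of the 6 injured libraries and the lower level in sham replicate 1. The mean was 1008 ± 783 CPM in macrophages/microglia (SD, n = 8 libraries) and 4131 ± 5142 CPM in neutrophils (SD, n = 7). The ranges overlapped. CPM is relative to the UMIs of a type, and the median depth was 1677 UMIs in neutrophils and 10771.5 in macrophages/microglia. Over the 7 shared libraries, 8272 neutrophils held 21925 Ccl2 UMIs and 25185 macrophages/microglia held 303602. The neutrophils of sham replicate 1 also differed in markers. S100a9 was at 198675 CPM in them and at 30459 to 71375 CPM in those of the injured libraries. S100a8 was at 73621 CPM against 7367 to 21345 CPM, and Cxcr2 at 334 CPM against 76.7 to 133 CPM. Csf3r, at 473 CPM, lay within the injured range (309 to 529 CPM). The part of these differences in the Ccl2 levels was not tested.

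The Ccl2 difference between the 2 cell types depended on sham replicate 1. Macrophages/microglia minus neutrophils averaged -1.19 ± 1.53 on the log2(CPM + 1) scale (SD, n = 7 libraries), with macrophages/microglia higher in 1 of 7 libraries and an adjusted p of 0.151 by the exact sign-flip permutation test, two-sided, over 36 tests of a member in a pair of types. Without sham replicate 1, the only library in which macrophages/microglia were higher, the difference was -1.74 ± 0.51 (SD, n = 6). The adjusted p of the exact permutation test was then 0.0380. With the contrary library left out, all 6 differences had the same direction, so the test could only give its smallest value. In that setting 23 of 28 tests passed, and the p-value is no separate support. The edgeR fit of the summed counts with the library as a block gave a log2 fold change of 1.31 ± 0.34 (SE) for neutrophils over macrophages/microglia, with an adjusted p of 0.00287. That fit was added after the levels had been seen, and it called 65.5% of 11850 genes.

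In the other gated cell types the mean Ccl2 level was lower. Fibroblasts held 502, 297, 156, 130, 1003, 303 and 170 CPM in sham replicate 1 and the mild, moderate and severe replicates in order. Macrophages/microglia exceeded fibroblasts in 7 of 7 libraries, by 1.56 ± 0.83 on the log2 scale (SD, exact permutation test, adjusted p 0.0281, the smallest value the 36 tests gave). They exceeded dendritic cells in 7 of 7 libraries, by 2.36 ± 1.26 (exact permutation test, adjusted p 0.0281), and oligodendrocytes in 8 of 8, by 5.44 ± 1.61 (exact permutation test, adjusted p 0.0281). Astrocytes (327 and 1136 CPM in the moderate libraries) and pericytes (659 and 330 CPM in the sham libraries) had 2 values each. These rest on 40 and 29 astrocytes and on 31 and 22 pericytes. When types were taken from clusters, 0% of either had the same type. Their means come from these libraries only. Fibroblasts and pericytes of sham replicate 1 were above its neutrophils (151 CPM), and the pericytes were also slightly above its macrophages/microglia. In the order of mean levels, neutrophils, macrophages/microglia, astrocytes, pericytes, fibroblasts and dendritic cells followed each other, and each overlapped the next in range.

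**Figure D2:**
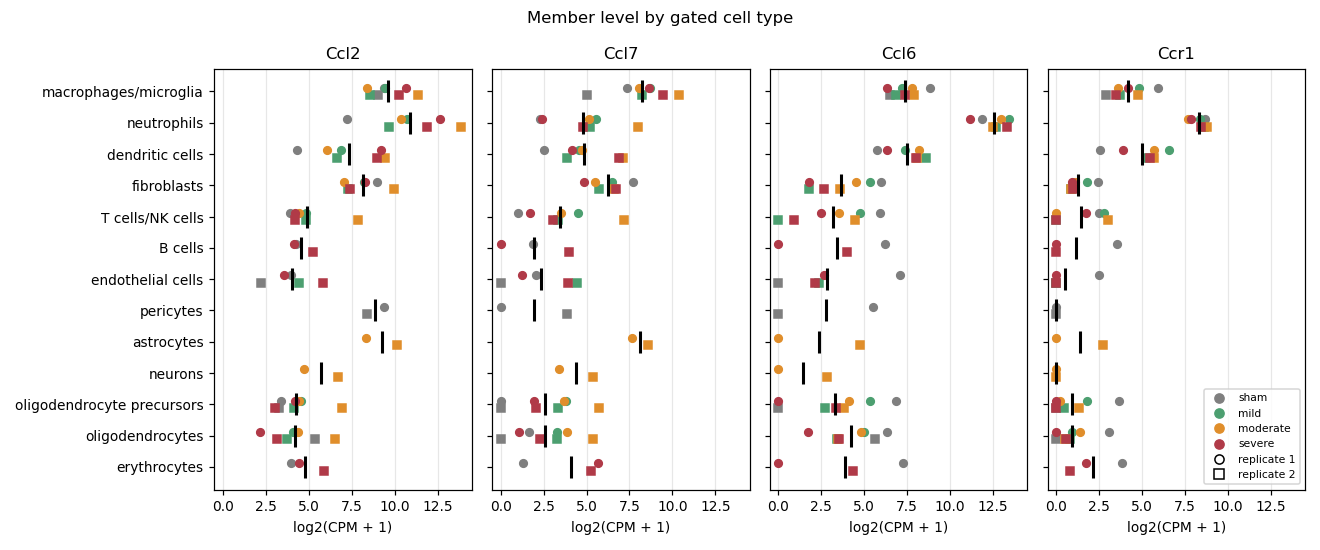
Level of each member, log2(CPM + 1) on the x axis, in every gated cell type; a point is a library in which 20 cells or more were gated to that type, and the black bar is the mean. Ccl6 and Ccr1 in neutrophils sit apart from all other types, whereas Ccl7 is highest in macrophages/microglia and Ccl2 overlaps between the leading types.

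Ccl7, the other ligand of Ccr2 here, was high in macrophages/microglia and low in neutrophils. In macrophages/microglia it was at 161 and 32.1 CPM in the sham libraries, 421 and 303 CPM in the mild libraries, 263 and 1318 CPM in the moderate libraries, and 396.5 and 709 CPM in the severe libraries. In neutrophils it was at 3.97 CPM in sham replicate 1, 46.5 and 35.2 CPM in the mild libraries, 34.1 and 249.8 CPM in the moderate libraries, and 4.26 and 27.1 CPM in the severe libraries. Macrophages/microglia were higher in each of the 7 libraries, by 3.92 ± 1.40 on the log2(CPM + 1) scale (SD, exact permutation test, adjusted p 0.0281). The edgeR log2 fold change of neutrophils over macrophages/microglia was -3.87 ± 0.37 (SE, adjusted p 1.78e-07). Of 10592 genes with a mean of at least 1 CPM, 33.9% were lower in neutrophils in all 7 libraries.

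Among the other types, Ccl7 came closest to macrophages/microglia in astrocytes, at 198 and 387 CPM in the moderate libraries. Fibroblasts held 207 CPM in sham replicate 1 and 27.9 to 104 CPM in the injured libraries. The difference of macrophages/microglia from fibroblasts was 2.46 ± 1.39 (SD, 6 of 7 libraries higher) and did not pass (exact permutation test, adjusted p 0.0536). Without sham replicate 1, the only library where fibroblasts were the higher, it was 2.93 (exact permutation test, adjusted p 0.0380). This is the smallest value of that setting, reached once the contrary library was left out. Dendritic cells were lower by 3.86 ± 0.81 (SD, 7 of 7 libraries, exact permutation test, adjusted p 0.0281).

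The 2 ligands stood in different proportions in the 2 cell types. There were 23.1 to 1508 Ccl2 UMIs per Ccl7 UMI in neutrophils and 1.24 to 4.14 in macrophages/microglia of the same 7 libraries, with the higher ratio in neutrophils in 7 of 7. The highest ratio rests on 5 Ccl7 UMIs, in severe replicate 1. In macrophages/microglia of sham replicate 2 the ratio was 16.4. The summed level of the macrophage/microglia markers was 682 to 2306 CPM in neutrophils and 9330 to 21506 CPM in macrophages/microglia, and its part in the neutrophil levels was not tested.

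Within macrophages/microglia, Ccl7 was found more often in cells that also carried Ccl2. For this comparison each cell was thinned to 1000 UMIs so that deep and shallow cells had the same chance of a UMI. Of cells with a Ccl2 UMI, 23.7% and 5.32% also had a Ccl7 UMI in sham replicates 1 and 2, 33.6% and 33.1% in the mild libraries, 34.4% and 55.97% in the moderate libraries, and 28.3% and 38.7% in the severe libraries. Of cells without a Ccl2 UMI, 2.54% and 0.608% had one in the sham libraries, 8.91% and 7.50% in mild, 7.86% and 23.8% in moderate, and 10.6% and 8.34% in severe injury. The share was higher beside Ccl2 in 8 of 8 libraries, by 22.9 ± 8.67 percentage points (SD, n = 8, exact sign-flip permutation test, two-sided, p 0.0078, the smallest value 8 libraries allow). Adjusted over the 4 gene pairs examined it was 0.0313 by the same exact permutation test. The other 3 pairs, in neutrophils, were chosen after the levels had been seen and had 5 libraries, for which the exact permutation test cannot go below 0.0625; their p-values were 0.0625 to 0.25. With thinning to 500 UMIs, 7 libraries could be used, and neutrophils with a Ccl2 UMI had a Ccl6 UMI more often in 7 of 7, by 6.84 ± 4.21 percentage points (SD, exact permutation test, p 0.0156, adjusted 0.0313). Without thinning this pair was higher in 6 of 7 libraries and did not pass (exact permutation test, adjusted p 0.0625).

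**Figure D3:**
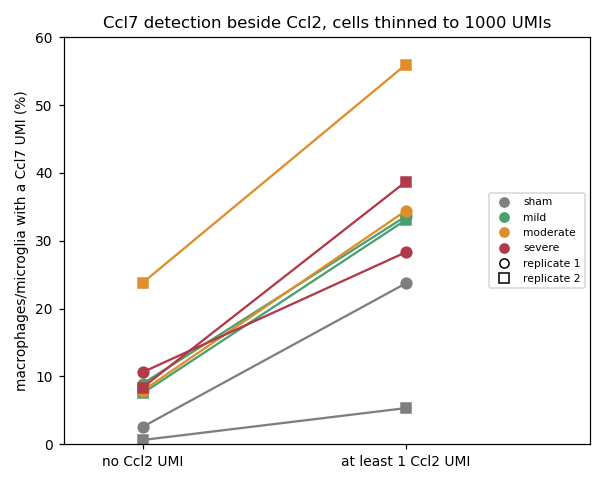
Share of macrophages/microglia with a Ccl7 UMI (percent, y axis) among cells without and with a Ccl2 UMI, after thinning to 1000 UMIs; each line joins the 2 values of a library. All 8 lines rise, from 0.608% to 5.32% in sham replicate 2 and from 23.8% to 55.97% in moderate replicate 2.

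The shares of thinned cells with a UMI set the 4 members against a background of free RNA. In macrophages/microglia, 31.7% of 26486 cells had a Ccl2 UMI (95% Wilson interval 31.2% to 32.3%), with a mean of 33.2% ± 15.3 over libraries (SD, n = 8). For Ccl7 the share was 17.9% (mean 16.7% ± 12.6), for Ccl6 13.3% (13.5% ± 6.61) and for Ccr1 2.11% (2.25% ± 1.37). In neutrophils the shares were 17.7% for Ccl2, 1.36% for Ccl7, 77.6% for Ccl6 and 30.3% for Ccr1 of 5955 cells, of which 4297 came from sham replicate 1. The means over libraries, which weight each equally, were 39.8% ± 23.8 for Ccl2, 5.37% ± 6.84 for Ccl7, 78.6% ± 15.3 for Ccl6 and 27.4% ± 5.81 for Ccr1 (SD, n = 6). The Ccl2 share was 6.68% of neutrophils in sham replicate 1 and 29.7% to 78.0% in the injured libraries other than moderate replicate 1. Moderate replicate 1 had too few neutrophils left after thinning for a value. In erythrocytes, which should lack these genes, they were 1.88% for Ccl2, 1.16% for Ccl7, 1.61% for Ccl6 and 0 of 1119 cells for Ccr1, which allows up to 0.268%. The interval of the pooled Ccl7 share in neutrophils (1.10% to 1.69%) held the share in erythrocytes, but these pools come from different libraries: 978 of 1197 gated erythrocytes were from severe replicate 2. In sham replicate 1 itself, 0.303% of neutrophils and 0.437% of oligodendrocytes had a Ccl7 UMI. By library the neutrophil share was 0.301% to 5.41% except in moderate replicate 2. There it was 18.7% of 182 neutrophils, beside 7.38% of 149 oligodendrocytes. Oligodendrocytes of sham replicate 1 (1145 cells) had a Ccl6 UMI in 9.52% and a Ccr1 UMI in 2.01%, beside 26.4% and 3.69% of its macrophages/microglia. Oligodendrocyte shares in the other libraries were 0% to 3.31% for Ccl6 and 0% to 0.174% for Ccr1. Median depths before thinning were 11028.5 UMIs in macrophages/microglia, 2201 in neutrophils and 7320 in erythrocytes, and intervals cover counting error only. Thinning left out the cells under 1000 UMIs. Among neutrophils these were 1212 of 1581 in the mild, 583 of 783 in the moderate, 47 of 1135 in the severe and 476 of 4774 in the sham group. Without thinning, the mean shares in macrophages/microglia were 61.8%, 35.6%, 39.9% and 11.5% for Ccl2, Ccl7, Ccl6 and Ccr1.

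Ccl6, a ligand of Ccr1, was higher in neutrophils than in macrophages/microglia in each of 7 libraries, as 12.9% of 10592 genes were. Its level in neutrophils was 3763 CPM in sham replicate 1, 11002 and 6637 CPM in the mild libraries, 8022 and 5764 CPM in the moderate libraries, and 2319 and 10024 CPM in the severe libraries. In macrophages/microglia it was 455 and 90.4 CPM in the sham libraries, 148 and 114 CPM in the mild, 219 and 237.5 CPM in the moderate, and 77.9 and 167 CPM in the severe libraries. The lowest neutrophil library thus lay above the highest library of macrophages/microglia. Of 10619 genes with a mean of at least 1 CPM, 6.03% showed such a gap in this direction, and of the 4 members Ccl6 and Ccr1 did. Macrophages/microglia minus neutrophils was -5.09 ± 1.08 on the log2(CPM + 1) scale (SD, n = 7, exact permutation test, adjusted p 0.0281). The edgeR log2 fold change of neutrophils over macrophages/microglia was 5.17 ± 0.28 (SE, adjusted p 2.43e-10).

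In dendritic cells Ccl6 was at 52.3 CPM in sham replicate 1, 163 and 386 CPM in the mild libraries, 293 and 269 CPM in the moderate libraries, and 79.4 and 260.0 CPM in the severe libraries. They did not differ from macrophages/microglia beyond the spread (-0.0066 ± 1.49 on the log2 scale, SD, exact permutation test, adjusted p 0.984), although macrophages/microglia were higher only in sham replicate 1. Without that library the difference was -0.52 (exact permutation test, adjusted p 0.0380). This is the smallest value of that setting, reached once the contrary library was left out. With cell types taken from clusters it was 2.37, with macrophages/microglia the higher (exact permutation test, adjusted p 0.0455). Macrophages/microglia exceeded oligodendrocytes in 8 of 8 libraries, by 3.12 ± 1.24 (SD, exact permutation test, adjusted p 0.0281).

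Ccr1, the receptor of Ccl6 and Ccl7, was highest in neutrophils, as Ccl6 was. In neutrophils it was at 398 CPM in sham replicate 1, 337 and 393 CPM in the mild libraries, 200.3 and 444 CPM in the moderate libraries, and 233 and 339 CPM in the severe libraries. In macrophages/microglia it was at 60.5 and 6.33 CPM in the sham libraries, 27.0 and 12.1 CPM in the mild, 10.9 and 26.0 CPM in the moderate, and 17.2 and 10.1 CPM in the severe libraries. The neutrophil libraries had a mean of 335 ± 89.3 CPM (SD, n = 7). They lay above every library of macrophages/microglia, taken as a whole, and of dendritic cells. Of 10886 genes with a mean of at least 1 CPM, 4.32% lay in all neutrophil libraries above all dendritic cell libraries, and of the 4 members Ccl6 and Ccr1 did. Macrophages/microglia minus neutrophils was -3.99 ± 0.78 on the log2 scale (SD, n = 7, exact permutation test, adjusted p 0.0281), and the edgeR log2 fold change of neutrophils was 4.13 ± 0.21 (SE, adjusted p 1.39e-10). Macrophages/microglia minus dendritic cells was -0.67 ± 1.98 (SD, exact permutation test, adjusted p 0.418), and with cell types taken from clusters it was 1.47 (exact permutation test, adjusted p 0.0741), so these types have no fixed order for Ccr1.

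The spread of ligand UMIs over macrophages/microglia differed between libraries. In moderate replicate 2, 3362 of 3616 cells had a Ccl2 UMI and 2839 had a Ccl7 UMI, and in sham replicate 1, 238 and 85 of 651 cells did. The top 5% of these cells held 27.3% of the Ccl2 UMIs in moderate replicate 2, the library with the highest level, and 68.5% in sham replicate 1. For Ccl7 the range was 30.6% in moderate replicate 2 to 97.1% in sham replicate 2, where 125 of 2095 cells had a Ccl7 UMI. The top 5% of neutrophils held 15.97% to 21.8% of the Ccl6 UMIs. A gene with few UMIs is concentrated by counting alone, so the shares of genes of unlike level are not set against each other.

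Macrophages/microglia were split into 4 kinds by further markers. They were 2516 microglia-like cells (Tmem119, P2ry12 and others), 16502 lipid-laden-like cells (Gpnmb, Fabp5 and others), 2206 border-type-like cells (Mrc1, Cd163 and others) and 473 monocyte-derived-like cells (Fn1, Vcan and others). The split was not complete: 5583 macrophages/microglia had no kind, among them 343 of the 651 of sham replicate 1. Lipid-laden-like cells, 29.8% of all kept cells, held 57.9% of the Ccl2 UMIs and 75.6% of the Ccl7 UMIs. Border-type-like cells, 3.98% of the cells, held 7.88% of the Ccl2, 9.65% of the Ccl7 and 9.50% of the Ccl6 UMIs.

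Microglia-like cells had the lowest mean level of all 4 members among the kinds. Ccl7 was at 19.0 and 22.2 CPM there in the sham libraries, 201 and 81.7 CPM in the mild libraries, 51.7 CPM in moderate replicate 1 and 164 CPM in severe replicate 2. Lipid-laden-like cells held 222 and 15.6 CPM of Ccl7 in the sham libraries, 447 and 290.3 CPM in the mild, 309 and 1373 CPM in the moderate, and 432 and 764 CPM in the severe libraries. Lipid-laden-like cells were the higher in 5 of 6 shared libraries, the exception being sham replicate 2. In the edgeR fit with the library as a block, which called 41% of 10186 genes and was added after the levels had been seen, Ccl7 (log2 fold change 1.98 ± 0.39, SE, adjusted p 0.00229) and Ccr1 (3.14 ± 0.20, SE, adjusted p 1.78e-06) were higher in lipid-laden-like cells. Ccl2 (0.30 ± 0.30, SE, adjusted p 0.463) and Ccl6 (0.50 ± 0.19, SE, adjusted p 0.0583) did not pass. With kinds taken from clusters, Ccl2 was lower in lipid-laden-like cells, by -0.48 (edgeR adjusted p 0.00515), so its direction depends on how the cells were assigned.

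Monocyte-derived-like cells were few, 0 in sham replicate 2 and 25 to 184 in each other library, and had the highest mean Ccl2 and Ccr1 levels. When kinds were taken from clusters, 0% of these cells had the same kind, so their values rest on the marker gate alone. Their Ccl2 was at 2081 CPM in sham replicate 1, 860 and 562 CPM in the mild libraries, 1240 and 7352 CPM in the moderate libraries, and 8420 and 5609 CPM in the severe libraries. Microglia-like cells held 265 and 599 CPM in the sham libraries, 663 and 379 CPM in the mild, 272 CPM in moderate replicate 1 and 654 CPM in severe replicate 2. Monocyte-derived-like cells were higher than microglia-like cells in 5 of 5 shared libraries for Ccl2, Ccl6 and Ccr1 and in 4 of 5 for Ccl7. Of 10521 genes with a mean of at least 1 CPM, 10.5% were higher in all 5.

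Of the 4 members, Ccr1 had the largest fold between these 2 kinds. Monocyte-derived-like cells held 133 CPM in sham replicate 1, 301 and 242 CPM in the mild libraries, 286 and 442 CPM in the moderate libraries, and 283 and 257 CPM in the severe libraries. Microglia-like cells held 12.4 CPM in sham replicate 1 and 0.470 to 1.65 CPM in the other 5 libraries, from 42 UMIs in all. Every monocyte-derived-like value lay above every border-type-like value (7.86 to 124 CPM). This held for 2.32% of 10500 genes and, among the members, for Ccr1 only. The monocyte-derived-like values overlapped those of neutrophils (200 to 444 CPM).

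The edgeR fit of monocyte-derived-like against microglia-like cells, with the library as a block, called 4 of the 4 members higher and 38.1% of 8143 genes in either direction. The log2 fold changes were 6.78 ± 0.46 for Ccr1 (SE, adjusted p 1.17e-09), 2.58 ± 0.34 for Ccl6 (SE, adjusted p 6.16e-06), 2.08 ± 0.35 for Ccl2 (SE, adjusted p 0.000106) and 2.06 ± 0.51 for Ccl7 (SE, adjusted p 0.00331). Neutrophil markers differed in this contrast, but not all in the same direction. Their summed level was 394 to 7157 CPM in monocyte-derived-like cells, 34.7 to 3445 CPM in microglia-like cells and 47480 to 285734 CPM in neutrophils. In sham replicate 1, S100a8 was at 878 CPM in monocyte-derived-like and 1276 CPM in microglia-like cells, and S100a9 at 1351.5 and 2013 CPM. In the other shared libraries both were higher in monocyte-derived-like cells. Csf3r was lower there in mild replicate 2 (20.5 against 37.6 CPM), moderate replicate 1 (38.8 against 42.5) and severe replicate 2 (4.95 against 18.7). It was slightly higher in sham replicate 1 (29.2 against 25.5) and mild replicate 1 (47.0 against 43.9). In monocyte-derived-like cells of the injured libraries S100a8 was at 143 to 2347 CPM and S100a9 at 32.8 to 4272 CPM, both highest in mild replicate 2. Of the 10 markers 6 to 8 were detected there, Cxcr2 was at 1.88 to 4.85 CPM in 3 libraries and 0 in the other 3, and the granule genes Mmp8 and Retnlg were at 0 in all 6. The part of the markers in the result was not tested.

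Border-type-like cells had the highest mean levels of Ccl6 and Ccl7 among the kinds, and both overlapped the next kind in range. When kinds were taken from clusters, 0% of these cells had the same kind. They exceeded lipid-laden-like cells for Ccl7 in 6 of 8 libraries and monocyte-derived-like cells for Ccl6 in 5 of 7. Their Ccl6 was at 1349 and 1081 CPM in the sham libraries, 440.4 and 361 CPM in the mild, 699.6 and 663 CPM in the moderate, and 297 and 869 CPM in the severe libraries. Microglia-like cells held 79.4 and 41.1 CPM in the sham libraries, 86.6 and 68.1 CPM in the mild, 205 CPM in moderate replicate 1 and 74.9 CPM in severe replicate 2. Border-type-like cells exceeded microglia-like cells in 6 of 6 shared libraries for each of the 4 members, and 9.54% of 10594 genes were higher in all 6. In border-type-like cells both sham values of Ccl6 lay above those of the 6 injured libraries, and so did those of Ccr1 (124 and 96.2 CPM in sham, 7.86 to 24.6 CPM in injured libraries). Such a gap downward was found for 2 of the 4 members and for 8.38% of 10553 genes with a mean of at least 1 CPM, and a gap upward for 0 members and 7.16%. The neutrophil markers summed to 3668 and 26.6 CPM in the sham border-type-like cells and to 26.7 to 184 CPM in the injured ones, and their part in the result was not tested.

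**Figure D4:**
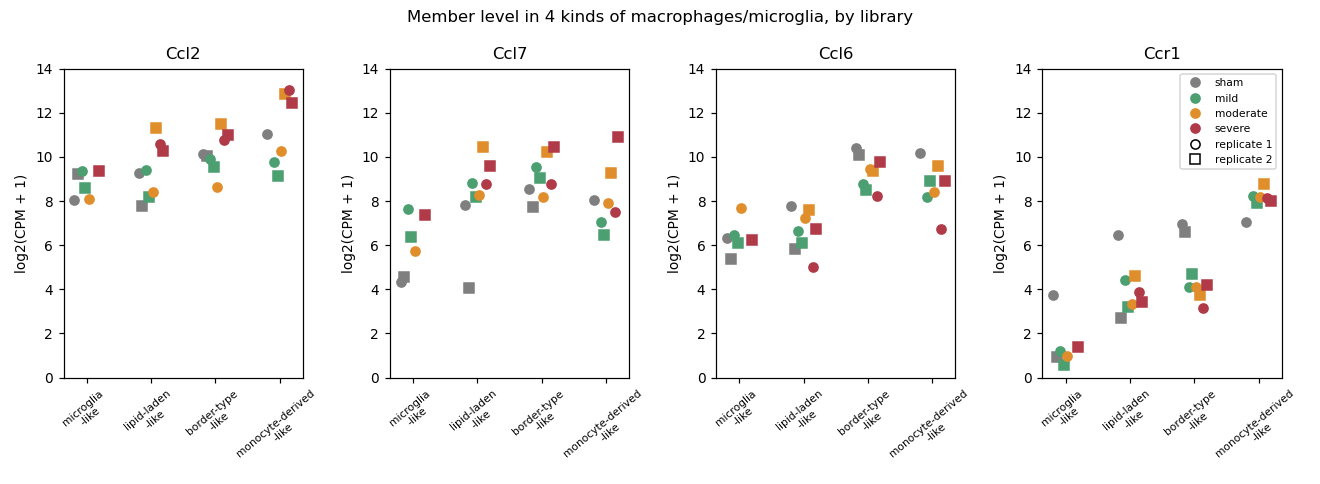
Level of each member, log2(CPM + 1) on the y axis, in the 4 kinds of macrophages/microglia; a point is a library with at least 20 cells of the kind. Ccr1 in monocyte-derived-like cells (133 to 442 CPM) sits above the other kinds, and microglia-like cells are lowest on average for all 4 members.

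Between the injury groups, Ccl7 was the member that separated injured from sham libraries in macrophages/microglia taken as a whole. In macrophages/microglia the lowest of the 6 injured libraries (263 CPM) lay above the higher sham library (161 CPM). Such a gap upward was found for 8.93% of 10523 genes with a mean of at least 1 CPM, and for 1 of the 4 members, and a gap downward for 16.7% and 0 members. The class held different kinds by group: 1267 of 2095 cells of sham replicate 2 were microglia-like and 317 lipid-laden-like, against 129 and 2590 of 4006 in mild replicate 1. Within lipid-laden-like cells alone, a comparison added after the values had been seen, the 6 injured libraries (290.3 to 1373 CPM) also lay above both sham libraries (222 and 15.6 CPM), a gap found there for 1 of the 4 members and 9.26% of 10353 genes, and the reverse gap for 0 members and 13.7%. In border-type-like cells the gap upward was found for 0 of the 4 members and 7.16% of 10553 genes. Ccl7 means ± SD of 2 libraries there were 291 ± 117 CPM in sham and 638 ± 161 CPM in mild. They were 734 ± 624 CPM in moderate and 906 ± 665 CPM in severe. In monocyte-derived-like cells Ccl7 was at 266 CPM in sham replicate 1. The means were 109 ± 32.7 CPM in mild, 428 ± 265 CPM in moderate and 1031 ± 1203 CPM in severe. For macrophages/microglia as a whole, group means of Ccl7 were 96.6 ± 91.2 CPM in sham and 362 ± 83.2 CPM in mild. They were 790.5 ± 746 CPM in moderate and 553 ± 221 CPM in severe (SD, n = 2 libraries each).

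The edgeR quasi-likelihood test did not call any of the 4 members in macrophages/microglia, in mild against sham (8.22% of 13243 genes called), in moderate against sham (3.26%) or in severe against sham (9.64%). At an unadjusted p under 0.05 it passed 1, 1 and 2 members, beside 4000, 3144 and 4067 of the 13243 genes. Ccl7 came nearest, with log2 fold changes of 2.10 ± 0.83 (SE, adjusted p 0.136) in mild, 3.16 ± 0.87 (SE, adjusted p 0.0862) in moderate and 3.12 ± 0.87 (SE, adjusted p 0.0572) in severe. DESeq2 called Ccl7 and no other member in each of the 3 comparisons, with adjusted p-values of 0.0328, 0.000605 and 0.000514. It called more genes than edgeR did, 2383, 1510 and 2479 of 13243. Without sham replicate 1, edgeR called Ccl7 in each, with log2 fold changes of 3.47, 4.52 and 4.49 and adjusted p-values of 0.0425, 0.0280 and 0.0231, beside 2043, 1323 and 1837 of 13828 genes. Without sham replicate 2 they were 1.48, 2.55 and 2.49, with edgeR adjusted p-values of 0.267, 0.127 and 0.0892. Without moderate replicate 2 the change in moderate against sham was 1.605 (edgeR adjusted p 0.449).

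In severe against sham, the edgeR adjusted p of Ccl7 was also under the threshold without moderate replicate 1 (0.0429) or moderate replicate 2 (0.0425). The shared control makes the 3 comparisons dependent on each other.

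Ccl2 in macrophages/microglia did not separate the groups. Its log2 fold changes over sham were -0.04 ± 0.74 in mild (SE, edgeR adjusted p 0.976), 1.36 ± 0.75 in moderate (SE, edgeR adjusted p 0.312) and 1.78 ± 0.76 in severe (SE, edgeR adjusted p 0.156). The moderate libraries differed from each other more than the groups did, and without moderate replicate 2 the moderate change was -0.72. Without moderate replicate 1 or 2, the edgeR adjusted p of Ccl2 in severe against sham was 0.0354 or 0.0343. In neutrophils, which had 1 sham library and so no test, Ccl2 was 151 CPM in sham and 815 to 14744 CPM in the injured libraries. The S100a9, S100a8 and Cxcr2 levels of these neutrophils also differed between the sham and the injured libraries.

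**Figure D5:**
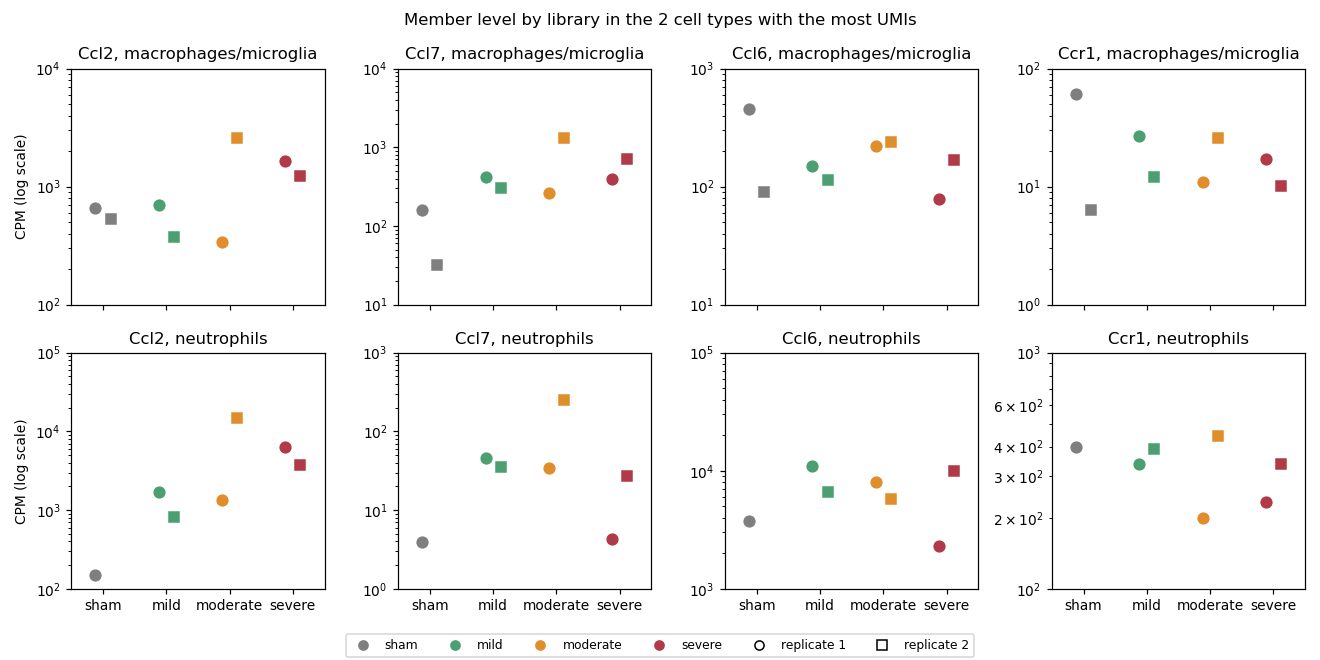
Level of each member (CPM, log axis) by injury group in macrophages/microglia and in neutrophils; a point is a library, and sham replicate 2 has no neutrophil value. For Ccl7 in macrophages/microglia the 6 injured libraries (263 to 1318 CPM) lie above both sham libraries (161 and 32.1 CPM), and for the other members in macrophages/microglia the groups overlap.

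Ccl6 and Ccr1 gave no separation in macrophages/microglia. The log2 fold changes over sham in the 3 injured groups were -0.87, -0.13 and -0.54 for Ccl6 and -0.54, -0.68 and -0.68 for Ccr1, with edgeR adjusted p-values of 0.368 to 0.922. All 6 turned positive without sham replicate 1 (0.51, 1.25 and 0.83 for Ccl6, and 1.60, 1.45 and 1.45 for Ccr1). Sham replicate 1 was also the library whose macrophages/microglia held the most neutrophil marker UMIs, 4046 CPM against 93.8 to 295 CPM in the other 7, and the part of these in its Ccl6 and Ccr1 levels was not tested.

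The steps of injury showed no called member either. In moderate against mild, edgeR called 0 of 4 members and 0% of 13243 genes, and at an unadjusted p under 0.05 it passed 0 members and 1751 genes, while DESeq2 called 0 members and 263 genes. In severe against moderate, edgeR called 0 of 4 members and 1.9% of genes. Unadjusted, 0 members and 2966 genes passed, and DESeq2 called 0 members and 1072 genes. Ccl2 changed by 1.40 ± 0.75 in moderate against mild (SE, edgeR adjusted p 0.445) and by 0.42 ± 0.74 in severe against moderate (SE, edgeR adjusted p 0.763). Ccl7 changed by 1.06 ± 0.81 (SE, edgeR adjusted p 0.584) and by -0.04 ± 0.80 (SE, edgeR adjusted p 0.983).

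Over all kept cells, fewer cells of a type and less RNA per cell cannot be told apart. Macrophages/microglia held 94.4% of the Ccl7 UMIs, so its values here are largely the same counts as above and no separate observation. Ccl7 was at 46.5 and 29.8 CPM in the sham libraries, 299.9 and 206 CPM in the mild, 213 and 881 CPM in the moderate, and 217 and 482 CPM in the severe libraries. Each injured library exceeded both sham libraries, which held for 10.4% of 12170 genes with a mean of at least 1 CPM and for 1 of the 4 members, and a gap downward was found for 6.95% of these genes and 0 members. The log2 fold changes were 2.66 ± 0.72 in mild (SE, edgeR adjusted p 0.122), 3.61 ± 0.75 in moderate (SE, edgeR adjusted p 0.117) and 3.46 ± 0.74 in severe (SE, edgeR adjusted p 0.0996). edgeR called 0 of 4 members in each of the 3 comparisons, beside 0%, 0% and 0.371% of 15882 genes (3673, 3028 and 3043 genes at an unadjusted p under 0.05). Unadjusted, 1 of 4 members passed, Ccl7. DESeq2 called 1 of 4 members, Ccl7, in each, beside 2043, 1534 and 1358 genes, with adjusted p-values of 0.00511, 4.78e-05 and 7.83e-05.

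Ccl6 and Ccr1 over all cells changed direction when sham replicate 1, the library with the most neutrophils, was left out. Ccl6 was at 1342 and 86.7 CPM in the sham libraries and at 101 to 366 CPM in the injured libraries. Ccr1 was at 145 and 6.02 CPM in the sham libraries and at 10.6 to 31.2 CPM in the injured libraries. The log2 fold changes over sham were -1.60, -1.80 and -1.51 for Ccl6 and -1.83, -2.25 and -1.77 for Ccr1 (edgeR adjusted p-values of 0.347 to 0.457). Without sham replicate 1 they were 1.23, 1.02 and 1.31 for Ccl6 and 1.60, 1.17 and 1.65 for Ccr1, and none was called. Without sham replicate 2 they were -2.46, -2.67 and -2.38 for Ccl6 and -2.73, -3.16 and -2.68 for Ccr1, and edgeR called all 6 with adjusted p-values of 0.0174 to 0.0476, beside 3453, 2931 and 2797 of 16623 genes. Ccl7 was then called in moderate against sham (3.45, edgeR adjusted p 0.0463). The part of the neutrophils in these changes was not tested.

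Other genes of the pathway were read from lists of CC ligands, CC receptors, atypical receptors and adhesion genes. In macrophages/microglia, 10 of the 18 CC ligands in the files passed the filter on low counts and 0 were called by edgeR in any injured group against sham. Among the CC receptors, Ccr3, the eosinophil receptor, was lower in each injured group. Its log2 fold changes were -3.09, -2.50 and -2.32 (edgeR adjusted p-values 0.0215, 0.0455 and 0.0372), beside medians of -0.04, -0.03 and -0.11 over all genes tested. Ccr3 rests on a mean level of 0.717 CPM over the 8 libraries.

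The Ccr3 calls were thin. In mild against sham, leaving out mild replicate 1, mild replicate 2 or moderate replicate 2 ended the call (edgeR adjusted p-values 0.223, 0.114 and 0.0507). In moderate and in severe against sham, leaving out any library other than sham replicate 1 ended it (edgeR adjusted p-values 0.0751 to 0.319 and 0.0753 to 0.157). Of 11 adhesion and migration genes, 2 fell in the mild group, where 8.22% of all genes were called: Selplg, the selectin ligand of leukocytes, by 2.52 on the log2 scale (edgeR adjusted p 0.0263), and the integrin subunit Itgam, by 2.39 (edgeR adjusted p 0.0485). Itgam was at -1.01 without sham replicate 1 and -3.01 without sham replicate 2, and it was called only in the latter of the 8 fits that left out a library. Selplg was no longer called without any one of the mild or moderate libraries. None of the 11 was called in the moderate or the severe group.

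Of 11 genes that respond to tissue dissociation, 1 was called in macrophages/microglia in moderate against sham (3.26% of all genes) and 2 in severe against sham (9.64%). Atf3 rose by 2.80 in moderate (edgeR adjusted p 0.0410), and in severe Jun fell by 1.46 (edgeR adjusted p 0.0198) and Egr1 fell by 2.26 (edgeR adjusted p 0.0460). Atf3 was at 2.17 without sham replicate 1 and 4.07 without sham replicate 2, and leaving out any of the other 6 libraries ended its call. Egr1 was at -2.80 without sham replicate 1 and -1.30 without sham replicate 2, and leaving out any library but sham replicate 1 ended its call. Jun was no longer called without any one of the mild or severe libraries. The summed level of the list was 11461 and 9021 CPM in the sham libraries, 7179 and 6746 CPM in the mild, 11399 and 8552 CPM in the moderate, and 5098 and 4543 CPM in the severe libraries. The part of this response in the levels of Ccl2 and Ccl7 was not tested.

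Between cell types, CC ligands were called in both directions. In monocyte-derived-like against microglia-like cells, where 38.1% of all genes were called, edgeR called 4 of 9 CC ligands higher (Ccl2, Ccl6, Ccl7 and Ccl24) and 2 lower, Ccl4 and Ccl12. In neutrophils against macrophages/microglia, where 65.5% of all genes were called, it called 3 of 10 higher (Ccl2, Ccl3 and Ccl6) and 5 lower (Ccl4, Ccl7, Ccl9, Ccl12 and Ccl24), and of the receptors it called Ccr1, Ccr1l1 and Ccr3 higher and Ccr6 lower.

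Across 69 sums of a library and a cell type, the genes most like each member were found by Pearson's r of log2(CPM + 1) among 7757 genes. These sums share libraries and depth, so r is a description. Ccl6 was most like Ccr1 (r = 0.916), and Ccr1 was most like the leukocyte receptor Lilrb2 (r = 0.924), with Ccl6 next. Ccl7 was most like Spp1 (r = 0.846) and Fabp4 (r = 0.826), which are markers of the lipid-laden-like gate, and Lgals3 (r = 0.786). Ccl2 was most like Cebpb (r = 0.842), which encodes a transcription factor of myeloid cells, Rab32 (r = 0.833) and Anpep (r = 0.830). Both Ccl6 and Ccr1 shared AABR07038983.1 among their 3 leading genes (r = 0.906 and 0.915), and Ccl6 also had Alox5ap (r = 0.902), which serves leukotriene synthesis. Among the members, Ccl2 and Ccl7 had an r of 0.706 and Ccl7 and Ccl6 an r of 0.276.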

How the data were processed

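The authors deposited raw UMI counts per gene and cell for each of 8 libraries, made from 10x 3' libraries with Cell Ranger (version 5.0.1 in the file headers) and build Rnor_6.0 per the labels. Cells were filtered at 10% mitochondrial UMIs, the 7.7% with the highest Scrublet score (scanpy 1.11.5) and 2 SD of UMIs and genes, per library. Cells were gated by marker lists (at least 3 markers, a score of 0.15 and a lead of 0.05), and these thresholds were set after the cell numbers had been seen. Sums per library and type with at least 20 cells were tested with edgeR 4.0.16 (quasi-likelihood, TMM, filterByExpr, Benjamini-Hochberg over all genes, threshold 0.05, all 4 groups in 1 fit). Cell types were compared within libraries by exact sign-flip permutation tests over all sign patterns (pseudocount 1 CPM). Wilson intervals were computed with scipy 1.17.1. Alternatives were DESeq2 1.42.0, other scalings, filters, gates, blocks, thinning depths and left-out libraries. Same-numbered libraries did not deviate together. The steps were tested on simulated data. For severe against sham, edgeR recovered 9% of simulated 4-fold and 57% of 16-fold changes in all cells. In macrophages/microglia it recovered 49% and 77%. A change that was not called is therefore not shown to be absent. The members and lists were chosen with earlier results of these data known. Named genes are the members, called genes of the lists, and the 3 genes most like each member. One gene of the pathway lists is not reported here.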

Additional observations from a re-analysis of the deposited data

Results flagged for a closer look

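The difference in Ccl2 between neutrophils and macrophages/microglia, on the log2(CPM + 1) scale, ran in opposite directions in injured and sham libraries. Neutrophils were higher by 1.28 and 1.12 in the mild libraries, by 1.97 and 2.50 in the moderate libraries and by 1.97 and 1.61 in the severe libraries. In sham replicate 1 the difference was -2.11, with 4773 neutrophils and 651 macrophages/microglia. Its neutrophils held S100a9 at 198675 CPM, against 30459 to 71375 CPM in the injured libraries. S100a8 and Cxcr2 also lay above the injured range and Csf3r lay within it, and the part of this was not tested. The difference between the groups was not tested, because only 1 sham library had at least 20 neutrophils.

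Among the comparisons between groups, only those over all kept cells used the ligand UMIs of cells that no gate took. The values below were picked because each library of the group lay above both sham libraries, and the share of all genes with such a gap was not counted. The values of sham replicate 2 rest on 35 unassigned cells. In unassigned cells of severe replicates 1 and 2, Ccl2 was at 4466 and 884.9 CPM, above 723 and 95.0 CPM in the sham libraries. Ccl7 was at 285.3 and 242.1 CPM, above 97.0 and 0 CPM in the sham libraries. Ccl6 was at 515.0 and 586.3 CPM, above 415 and 109 CPM in the sham libraries. No group had enough libraries for an outlier test.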

How the results depend on the processing

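The comparisons of injury with sham rest on 2 libraries a group, and the differences between libraries of a group set what could be called. Of 872 log2 fold changes under an alternative, 702 kept their direction and their side of the threshold, 34 passed it newly, 89 lost it and 47 changed direction. Of 388 differences between cell types the numbers were 275, 5, 100 and 8. The causes were not tested.

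By tool and filter, DESeq2 called 1 member in each of the 6 comparisons with sham. Without a filter on low counts, 1 member was called in all cells for moderate and severe injury, in macrophages/microglia for mild injury and for moderate against mild, and 2 were called in macrophages/microglia for moderate and severe injury. With types taken from clusters, 1 was called in macrophages/microglia for severe injury. Monocyte-derived-like and border-type-like cells could not be had in this way. Gene counts moved by more. In all cells edgeR called 0, 0 and 59 genes for mild, moderate and severe injury, DESeq2 2043, 1534 and 1358, and edgeR without the filter 48, 145 and 243; for severe injury the replicate block gave 10 and the 2 groups alone 0. In macrophages/microglia the counts for mild, moderate and severe injury, moderate against mild and severe against moderate were 1089, 432, 1276, 0 and 251 with edgeR, 2383, 1510, 2479, 263 and 1072 with DESeq2, 2683, 2027, 2760, 546 and 1290 without the filter, 513, 201, 813, 2 and 142 with the replicate block, and 0, 0, 183, 70 and 352 with the 2 groups alone. Scaling to library size gave 2741 for severe injury and 1073 for severe against moderate. Monocyte-derived-like against microglia-like cells gave 3104 genes, and 1874 without a library block.

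The same scaling moved the median log2 fold change of all genes by -0.491 for severe injury in macrophages/microglia, -0.459 for severe against moderate, -0.222 in monocyte-derived-like cells, -0.187 in neutrophils and in lipid-laden-like cells, and 0.188 and -0.188 in all cells for moderate and severe injury. The share of called genes that were higher became 42.0% instead of 53.0% (mild), 17.5% instead of 59.9% (severe), 9.51% instead of 44.6% (severe against moderate), 34.8% instead of 49.3% (monocyte-derived-like) and 31.2% instead of 54.3% (lipid-laden-like).

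Directions changed for small log2 values in macrophages/microglia. Ccl2 in mild injury became 0.041 without the filter, 0.0030 with the replicate block and 0.084 with clusters. With clusters, Ccl6 in moderate injury became 0.12 and Ccr1 in severe injury 0.012. Ccr1 in moderate against mild became 0.18 with the block. In severe against moderate, Ccl2 became -0.034 with library size, Ccl7 0.0021 with the block and 0.035 with doublets kept, and Ccr1 -0.44 with library size, -0.044 without the filter, -0.24 with the block and -0.029 with the 2 groups alone. With clusters, Ccl2 in lipid-laden-like against microglia-like cells became -0.48 (edgeR adjusted p 0.00515), and the differences of macrophages/microglia from dendritic cells became 2.37 for Ccl6 and 1.47 for Ccr1; a stricter gate gave 0.0055 for Ccl6. Same-numbered libraries share only a number (deviation correlations -0.224 to 0.233), and the block changed 0 calls among 32 member values.

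With 1 library left out, a lone library is assumed to vary like the other groups. The members called in all cells ranged from 0 to 2 (mild), 0 to 3 (moderate) and 0 to 2 (severe), the highest without sham replicate 2. In macrophages/microglia they ranged from 0 to 1 (mild), 0 to 1 (moderate) and 0 to 2 (severe), where sham replicate 1 or a moderate library was left out. In all cells, the log2 fold change ranged for mild injury from -0.56 to 0.91 (Ccl2), -2.78 to 1.23 (Ccl6) and -2.77 to 1.60 (Ccr1), for moderate injury from -0.43 to 2.18 (Ccl2), -2.67 to 1.02 (Ccl6) and -3.16 to 1.17 (Ccr1), and for severe injury from -2.38 to 1.31 (Ccl6) and -2.68 to 1.65 (Ccr1). In macrophages/microglia it ranged for mild injury from -0.51 to 0.35 (Ccl2), -1.49 to 0.51 (Ccl6) and -1.32 to 1.60 (Ccr1), for moderate injury from -0.72 to 2.19 (Ccl2), -0.73 to 1.25 (Ccl6) and -1.45 to 1.45 (Ccr1), and for severe injury from -1.26 to 0.83 (Ccl6) and -1.47 to 1.45 (Ccr1). Ccl7 kept its direction, from 1.48 to 3.47 (mild), 1.605 to 4.52 (moderate) and 2.49 to 4.49 (severe) in macrophages/microglia and from 2.39 to 2.93, 2.44 to 4.29 and 2.645 to 4.02 in all cells. The highest Ccl6 and Ccr1 values against sham were those without sham replicate 1. For moderate against mild it ranged from -0.70 to 2.21 (Ccl2), -0.51 to 1.79 (Ccl7) and -0.89 to 0.52 (Ccr1), and for severe against moderate from -0.40 to 2.51 (Ccl2), -0.77 to 1.53 (Ccl7), -1.18 to 0.029 (Ccl6) and -0.49 to 0.74 (Ccr1).

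Of 36 differences of macrophages/microglia from another type, 20 passed by the exact permutation test, 0 to 23 with 1 library left out (0 without any one of the mild or moderate libraries, smallest adjusted p 0.0563) and 0 of 24 with at least 100 cells (smallest adjusted p 0.0577). The Ccl6 difference from dendritic cells ranged from -0.52 to 0.28. Without thinning, the shares of macrophages/microglia with a UMI were 61.8% (Ccl2), 35.6% (Ccl7), 39.9% (Ccl6) and 11.5% (Ccr1), and thinning to 500 UMIs gave 14.6% for Ccr1 in neutrophils.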
